A study of Homo sapiens with 9 samples.

Results

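The snoRNA host genes examined here are 10 long noncoding RNA genes, chosen by name: SNHG1, SNHG3, SNHG5, SNHG6, SNHG7, SNHG8, SNHG12, SNHG15, GAS5 and ZFAS1. They are 10 of the 62700 genes and 18866 lncRNA genes of the GENCODE version 44 annotation. A peak of RNA polymerase II was given to a host when its summit, the position of highest signal, fell inside the gene or no more than 1000 bp from one of its annotated transcript starts. Polymerase had been mapped by ChIP-seq against POLR2A, its largest subunit, in HEK293T, a human embryonic kidney cell line. The cells carried a control shRNA (genotype labelled wildtype), a U2AF1 knockdown or a DHX9 knockdown, with 2 ChIP replicates and 1 input sample per condition. All groups share the cell line and its culture, and neither the shRNA sequences nor the remaining amount of each target is given in the sources used here. Peak lists show neither RNA nor protein, so the extent of the knockdowns and the markers of the cell line could not be checked. The deposited data hold 1 peak list per condition, called here the control list, the U2AF1 list and the DHX9 list. Each list is a single unit, so no value has a replicate error and no difference between lists was tested.

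Small nucleolar RNAs (snoRNAs) guide chemical changes in ribosomal and other RNAs: box C/D snoRNAs guide ribose methylation and H/ACA snoRNAs guide the conversion of uridine to pseudouridine. In human cells most of them are not transcribed from promoters of their own but are cut out of introns after splicing, so a snoRNA depends on the promoter and on the splicing of its host. The hosts of the SNHG family yield spliced RNAs of little or no coding capacity, and several, GAS5 being the textbook case, begin with a pyrimidine tract like the genes of the translation machinery. U2AF1 is the small subunit of the factor that recognises the end of an intron, and DHX9 is a helicase that unwinds RNA and RNA-DNA hybrids (R-loops), to which the title of the series refers.

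The annotation bore out the label, since every one of the 10 genes contained at least 1 RefSeq snoRNA gene. GAS5 (chromosome 1, 173858559 to 173868882, minus strand) held 11, of which 10 were box C/D. SNHG1 (chromosome 11, 62851978 to 62855953, minus) held 9, of which 8 carried box C/D names. ZFAS1 (chromosome 20, 49278178 to 49299600, plus) held 3 and SNHG5 (chromosome 6, 85650491 to 85678932, minus) held 2, all box C/D. SNHG6 held the box C/D snoRNA SNORD87 alone. SNHG12 (chromosome 1, 28578538 to 28583132, minus) held 3 H/ACA and 1 box C/D snoRNA. SNHG3 (chromosome 1, 28505980 to 28510892, plus) and SNHG7 (chromosome 9, 136721366 to 136728184, minus) held 2 H/ACA snoRNAs each. SNHG8 (chromosome 4, 118278703 to 118285316, plus) and SNHG15 (chromosome 7, 44983019 to 44986961, minus) held 1 H/ACA snoRNA each.

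The sequences around the starts are shown because the peaks described below sit on them, with SNHG8 as the host without a peak. Each runs from 50 bases before to 20 bases from the start, 5′ to 3′ on the strand of the gene, so that the start is base 51. Capitals mark matches to TATANA (N is any base) that begin between 50 and 15 bases before the start. All are from the RefSeq promoter table (GRCh38), except GAS5, which was read from hg38 at the start that the largest number of its transcripts share because the RefSeq start lies farther upstream.
GAS5, chr1:173867970-173868039, minus: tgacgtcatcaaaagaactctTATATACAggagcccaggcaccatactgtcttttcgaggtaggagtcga
ZFAS1, chr20:49278592-49278661, plus: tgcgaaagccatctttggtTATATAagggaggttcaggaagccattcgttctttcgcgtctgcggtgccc
SNHG5, chr6:85678714-85678783, minus: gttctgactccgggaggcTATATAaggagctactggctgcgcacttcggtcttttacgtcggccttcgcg
SNHG7, chr9:136728165-136728234, minus: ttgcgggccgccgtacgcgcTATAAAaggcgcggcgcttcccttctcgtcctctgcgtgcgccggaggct
SNHG12, chr1:28581854-28581923, minus: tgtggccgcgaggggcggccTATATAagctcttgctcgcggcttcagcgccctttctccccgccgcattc
SNHG1, chr11:62855866-62855935, minus: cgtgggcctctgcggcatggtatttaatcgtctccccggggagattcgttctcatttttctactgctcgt
SNHG8, chr4:118278712-118278781, plus: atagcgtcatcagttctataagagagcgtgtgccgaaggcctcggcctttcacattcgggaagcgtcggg

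Measured from the main start, the one that the largest number of annotated transcripts share, a TATANA match stood at this distance in 5 of the 10 hosts: GAS5, ZFAS1, SNHG5, SNHG7 and SNHG12. Of the 35116 RefSeq promoters, 3.96% had one on the strand of the gene, 4 of the 8 hosts in that table among them. The motif was chosen after the sequences were seen. Its first base lay 30 bases before the start in SNHG7 and SNHG12, 31 in ZFAS1 and 32 in SNHG5, counted from the starts printed. Pyrimidine tracts were common too. A run of at least 5 C or T within 10 bases of the start was found in 7 of the 10 hosts and in 37.3% of all promoters. The run that began at the main start itself was 11 bases in SNHG12, 7 in SNHG6, 6 in GAS5 and 5 in ZFAS1 and SNHG8. For these runs and the motifs below, hosts were read around the main start and all promoters around the RefSeq start. The starts printed for SNHG5 and SNHG8 lie 15 and 4 bp downstream of their main starts, so their printed runs differ. GGGCGG, the GC box, occurred on either strand in the 300 bases around 9 of the 10 starts, against 45.0% of all promoters. The palindrome CACGTG, an E-box, occurred in 2 hosts (GAS5 and SNHG7) and in 7.26% of promoters, and CCAAT in SNHG5 alone and in 34.6%. CCGGAAGT occurred in SNHG3 alone (4.14% of promoters) and TATAAA on either strand in SNHG1 and SNHG7 (11.5% of promoters). A palindrome of 10 bases with a CGCG core occurred in none of the hosts (0.424% of promoters). These are matches of letters and not mapped sites. The 300 bases around the host starts had a median GC share of 63%, against 58.7% for all promoters. Their median ratio of observed to expected CG pairs was 1.04, against 0.579. The part of this composition in the motif counts was not tested.

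Polymerase was listed at nearly all of these genes. In the control list 9 of the 10 hosts had a peak, where the rule gave one to 5.9% of all genes, 4.36% of lncRNA genes and 13.2% of protein-coding genes. The U2AF1 list had a peak at 7 of the 10, against 3.41%, 2.43% and 7.34% of these classes. In the DHX9 list 9 of the 10 had one, against 9.75%, 7.03% and 22.2%. SNHG3, SNHG5, SNHG7, SNHG12, SNHG15, GAS5 and ZFAS1 had a peak in every list, SNHG1 and SNHG6 in the control and DHX9 lists, and SNHG8 in none. Of the 9 hosts with a control peak, 2 had none in the U2AF1 list, where 61.9% of all genes, 64.1% of lncRNA genes and 63.5% of protein-coding genes with a control peak had none. In the DHX9 list 0 of the 9 were missing, where 23.6%, 23.8% and 23.9% of these classes were. The U2AF1 list was the shortest of the 3, with 1730 peaks against 2757 in the control list and 4443 in the DHX9 list, and both comparisons share the control list. The classes also differ in peak strength. Ranked by fold in the control list, host peaks had a median place of 7.47% from the top, against 44.4% for all genes with a control peak. The part of this difference in the counts was not tested. In a population of cells, fewer cells with polymerase at a gene and less polymerase per cell cannot be told apart.

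**Figure D1:**
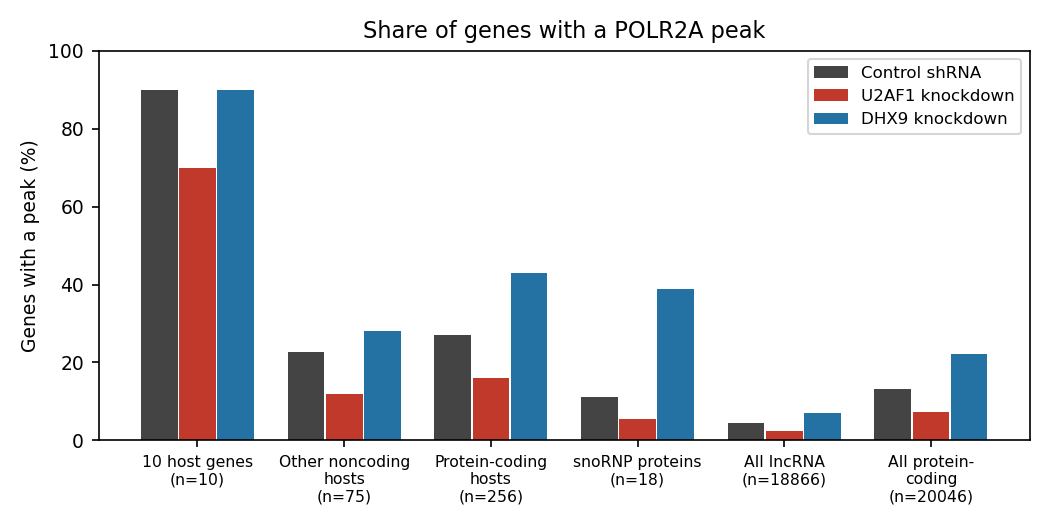
Percent of genes with a POLR2A peak by the rule (vertical axis) in each gene class (horizontal axis, with the number of genes), with 1 bar per list. The 10 hosts stand at 90.0% in the control and DHX9 lists and at 70.0% in the U2AF1 list, above every other class shown.

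The peaks were also high in their lists. The authors' fold enrichment, the ratio of ChIP signal to the background of the peak caller, was used to rank peaks within a list. Folds are printed below for each list, but their backgrounds differ between lists, so folds of different lists are not to be compared. Expressed as a percent of the list, with small numbers for high folds, the median rank of the hosts with a peak was 7.47% for the control list, 14.97% in the U2AF1 list and 4.21% in the DHX9 list. For all peaks with a summit within 1000 bp of a start, called start-site peaks below, it was 44.9%, 40.9% and 46.2%. The lists differ in length, and with the 1730 best p-values of each, which leave out SNHG15 in the control and DHX9 lists, the host medians were 11.5% (control), 14.97% (U2AF1) and 10.3% (DHX9). With −log10 q of at least 5 they were 10.5%, 25.1% and 6.57%, and by recovered pileup 10.7%, 19.0% and 8.53%. Among the best 10% of the list were 5 of the 9 control peaks of the hosts, 3 of the 7 U2AF1 peaks and 6 of the 9 DHX9 peaks, against 10.5%, 12.5% and 10.8% of start-site peaks. The 5 hosts with a TATANA match were the 5 highest hosts of the control list, with ranks from 91 to 206 of 2757. Control peaks of hosts without it ranked from 391 to 2322. The other lists did not keep this order: ZFAS1, with the match, was the lowest host of the U2AF1 list at rank 1061, below SNHG3 (536) and SNHG15 (611). In the DHX9 list SNHG1, without the match, stood at rank 187 and ZFAS1 at rank 383.

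**Figure D2:**
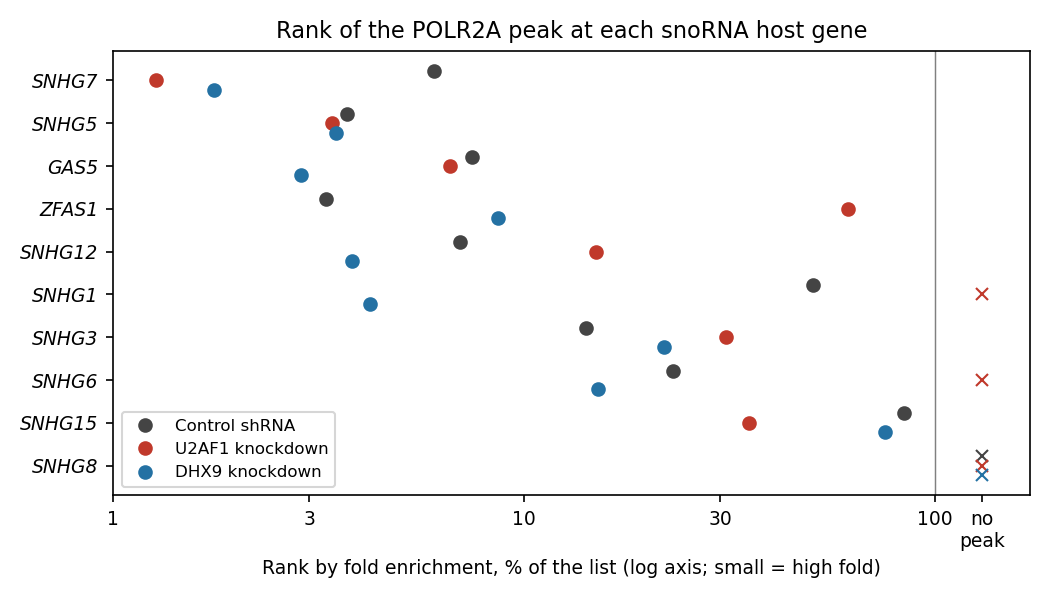
Rank of the highest peak of each host by fold enrichment, as percent of its list (horizontal log axis), for the control (grey), U2AF1 knockdown (red) and DHX9 knockdown (blue) lists; crosses mark hosts with no peak. ZFAS1 moves from 3.30% in the control list to 61.3% in the U2AF1 list, SNHG5 stays between 3.41% and 3.70%, and SNHG8 has no peak.

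A fold enrichment joins 2 quantities, the signal at the summit and the background set for that place. Both were recovered from the fold and the p-value of each peak, assuming a Poisson test and a pseudocount of 1. Under that assumption 1713 of the 1730 U2AF1 peaks and 4410 of the 4443 DHX9 peaks gave a single whole-number pileup. The pileup is the number of sequenced fragments over the summit. In the control list the pileup is scaled and not whole. The lowest background recovered in a list, 3.85 in the control, 2.05 in the U2AF1 knockdown and 1.68 in the DHX9 list, serves below as the unit of that list. A relative pileup is a pileup divided by it. Intervals are exact Poisson 95% intervals of the whole-number pileups, they cover counting error only, and none can be given for the scaled control values.

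Among the box C/D hosts, GAS5, named for its rise in growth-arrested cells, had a fold enrichment of 7.15 in the control list (rank 206 of 2757), 8.68 in the U2AF1 list (rank 114 of 1730) and 11.9 in the DHX9 list (rank 127 of 4443). Its relative pileup was 23.9 in the control list. It was 20.0 (interval 14.3 to 27.1, 41 fragments) in the U2AF1 list and 26.8 (19.6 to 35.9, 45 fragments) in the DHX9 list. GAS5 was within the best 7.47% of every list by rank, and the intervals of both knockdown lists contained the control value. The peak lay at 173867743 to 173868107 in the control list. ZBTB37, a protein-coding gene on the other strand, starts 93 bp from the main start of GAS5, and ChIP carries no strand, so polymerase of the pair cannot be told apart.

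ZFAS1, which lies head to head with the zinc finger gene ZNFX1 (216 bp between starts), was the highest host of the control list and the lowest of the U2AF1 list. The control peak at 49278249 to 49278891 was 10.5-fold enriched and ranked 91. In the U2AF1 list the peak at 49278545 to 49278825 was 4.32-fold enriched and ranked 1061 of 1730. In the DHX9 list, at 49278283 to 49278843, it was 8.25-fold enriched and ranked 383 of 4443. The recovered pileup was also lowest in the U2AF1 list, while control and DHX9 changed places: it was 19.2 times the list background in the control list, 10.2 times (6.33 to 15.6, 21 fragments) in the U2AF1 list and 22.7 times (16.0 to 31.1, 38 fragments) in the DHX9 list. These intervals cover counting error only and were not set beside those of start-site peaks in general, so no difference is read from them. Start-site peaks in general also had a lower median ratio to control in the U2AF1 list (0.954) than in the DHX9 list (1.35). The ratio of U2AF1 knockdown to control was 0.532, and 0.459% of the 654 pairs of start-site peaks present in both lists had a ratio as low. The smallest relative pileup recovered in the U2AF1 list was 4.87, and places that fell out of that list are not among the pairs. The share therefore leaves out lower peaks with a fall as large, and does not show how rare such a fall was. The peak was also narrower, 281 bp against 643 and 561 bp, with its upstream edge 97 bp before the main start in the U2AF1 list and 393 and 359 bp before it in the control and DHX9 lists, on the side of ZNFX1.

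SNHG5, host of SNORD50A and SNORD50B, was the steadiest by rank percent among the hosts with a peak in every list. It stood at 3.70%, 3.41% and 3.49% of the control, U2AF1 and DHX9 lists. Enrichment over the background was 10.0-fold in the control list and 10.9-fold in both knockdown lists, with ranks 102, 59 and 155. The relative pileup was 18.8, 19.5 (13.9 to 26.5, 40 fragments) and 21.5 (15.03 to 29.7, 36 fragments). All 3 values lay within both intervals. A coding gene of the annotation, ENSG00000271793, starts 15 bp from the same place on the same strand, so the peak belongs to both.

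SNHG1, host of the SNORD25 to SNORD31 cluster, had no peak in the U2AF1 list. The nearest peak of that list lay 14.3 kb away and had rank 5. In the control list the SNHG1 peak, at 62855652 to 62856337, was 686 bp wide, the widest host peak of that list, and its 4.12-fold enrichment put it at rank 1392 of 2757. By its p-value the same peak ranked 509. In the DHX9 list, at 62855564 to 62856391, it was 828 bp wide and 10.3-fold enriched, at rank 187 of 4443. The relative pileup was 15.8 in the control list and 22.7 (16.0 to 31.1, 38 fragments) in the DHX9 list, while the local background at the peak was 3.64 times the list background in the control list, the highest of any host, and 1.67 times in the DHX9 list. SLC3A2, the gene of an amino acid transporter subunit, starts 119 bp from the main start of SNHG1 on the other strand and lies under the same peak.

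SNHG6, host of SNORD87, was the other gene without a U2AF1 peak; the nearest peak lay 418 kb away. It had a fold enrichment of 5.24 in the control list (66925305 to 66925773, rank 635) and 7.30 in the DHX9 list (66925321 to 66925754, rank 671). The relative pileup was 9.71 in the control list and 11.9 (7.28 to 18.4, 20 fragments) in the DHX9 list, the lowest of the hosts in each. The nearest start of another gene, TCF24, lay 29576 bp from the main start. The smallest pileup recovered in the U2AF1 list was 10 fragments, or 4.87 times its background, at places of low local background. No pileup is given for a place without a peak, and what kept SNHG1 and SNHG6 out of that list was not tested.

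Among the hosts with H/ACA snoRNAs, SNHG7 had the tallest pileup of all hosts in every list. Its peak had a fold enrichment of 7.97 in the control list (rank 166), 17.1 in the U2AF1 list (rank 22) and 15.9 in the DHX9 list (rank 78). The relative pileup hardly differed, at 28.7 in the control list, 29.7 (22.7 to 38.1, 61 fragments) in the U2AF1 list and 29.2 (21.6 to 38.6, 49 fragments) in the DHX9 list. The local background at SNHG7 was 3.38 times the list background in the control list and 1.28 times in both knockdown lists. The peak had no start of another gene within 1000 bp of its summit and lay at 136727895 to 136728378 in the control list.

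SNHG12, host of SNORA16A, SNORA44, SNORA61 and SNORD99, had a fold enrichment of 7.33 (rank 193), 6.66 (rank 259) and 10.6 (rank 169) in the control, U2AF1 and DHX9 lists. Its relative pileup was 24.5, 20.4 (14.7 to 27.6, 42 fragments) and 26.2 (19.1 to 35.2, 44 fragments), with overlapping intervals. SNHG3, host of the U17 snoRNAs SNORA73A and SNORA73B, shares its start with RCC1, which encodes a chromatin-bound exchange factor for the GTPase Ran. Its fold enrichment was 5.88 (rank 391), 5.54 (rank 536) and 6.64 (rank 971). The relative pileup was 17.6 in the control list, 12.2 (7.88 to 18.0, 25 fragments) in the U2AF1 list and 15.5 (10.1 to 22.7, 26 fragments) in the DHX9 list, where the intervals overlapped each other and held the control value.

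SNHG15, host of SNORA9, had the weakest control and DHX9 peaks by fold, 3.01 (rank 2322 of 2757) and 4.43 (rank 3350 of 4443), and a better place in the U2AF1 list, 5.27 (rank 611 of 1730). The relative pileup was 9.91 in the control list, 10.7 (6.71 to 16.2, 22 fragments) in the U2AF1 list and 13.1 (8.22 to 19.9, 22 fragments) in the DHX9 list, with overlapping intervals. The local background was 3.12, 1.64 and 2.50 times that of the list. SNHG8, host of SNORA24, was the gene without any peak, and the nearest peak of any list was 934 kb away. Its promoter was no poorer in the letters searched than that of SNHG15, with a GC box and a pyrimidine run at the main start, and without a TATANA match.

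**Figure D3:**
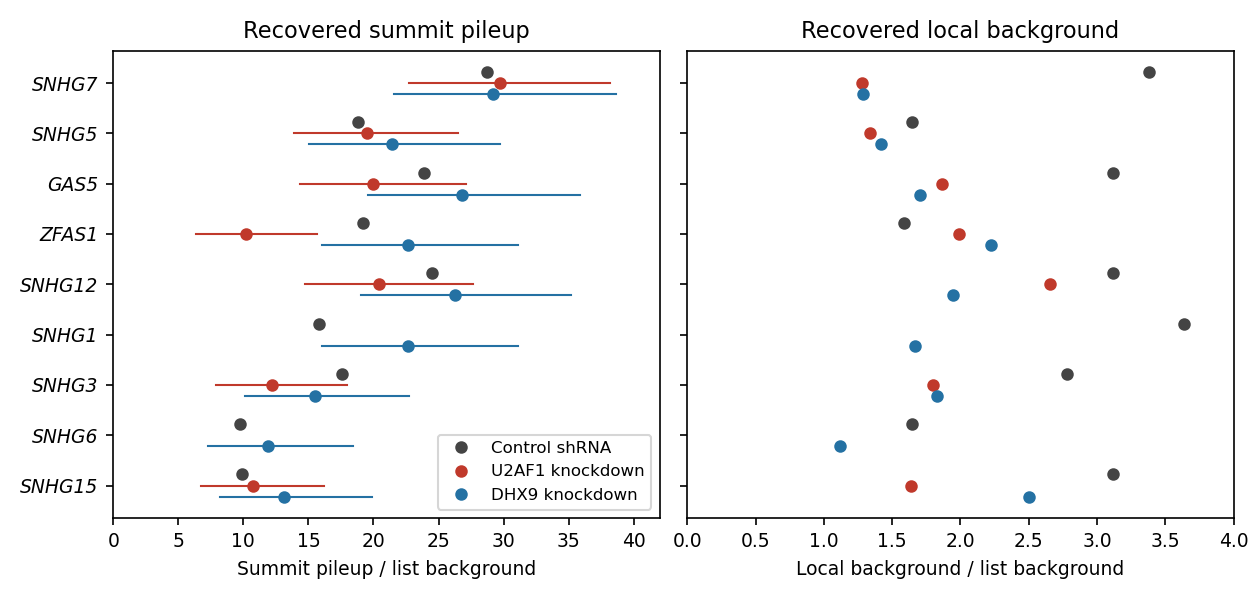
Left, recovered summit pileup divided by the background of its list; right, recovered local background divided by the same unit, for 9 hosts in the control (grey), U2AF1 knockdown (red) and DHX9 knockdown (blue) lists. Lines are exact Poisson 95% intervals (counting error only, knockdown lists only). SNHG7 has nearly equal pileups, from 28.7 to 29.7, over unequal local backgrounds, from 1.28 to 3.38, and the U2AF1 value of ZFAS1, 10.2, is well below its control value, 19.2.

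Seen over the hosts together, the relative pileups ranged from 9.71 to 28.7 in the control list, from 10.2 to 29.7 in the U2AF1 list and from 11.9 to 29.2 in the DHX9 list. Start-site peaks in general had medians of 8.70, 9.25 and 10.1. The order of hosts was similar between lists, with SNHG7 first in each and GAS5 and SNHG12 in places 2 and 3. For the 7 hosts with a peak in both the U2AF1 knockdown and control lists, the ratio of relative pileups ranged from 0.532 (ZFAS1) to 1.08 (SNHG15), with a median of 0.836, where all 654 pairs of start-site peaks had a median of 0.954. For the 9 hosts in the DHX9 knockdown and control lists it ranged from 0.881 (SNHG3) to 1.44 (SNHG1), with a median of 1.14, where all 1274 pairs had a median of 1.35. Both ratios use the same control list and count only places listed in both, so places that fell out of a list are missing from these medians. The local background was higher in the control list, with a host median of 3.12 times the list background against 1.80 and 1.70 in the knockdown lists and against 1.78, 1.36 and 1.34 for start-site peaks in general. Which samples set this background is not given in the sources used here, and its part in the differences of fold was not tested.

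The place of the summit was uniform when taken from the nearest or the main start, but less so from the canonical transcript start. All 25 host summits (the highest peak of each host in each list) lay between 6 bp upstream and 65 bp downstream of the nearest annotated start of the host, far inside the 1000 bp of the rule. Hosts have many annotated starts, from 3 to 26, so the offset was also taken from the main start. All 25 summits then lay downstream, from 13 to 147 bp. Medians by the main start were 55, 51 and 49 bp in the control, U2AF1 and DHX9 lists, and from the canonical transcript start 96, 61 and 78 bp. From the canonical start the summits of SNHG12 lay 1144, 1164 and 1162 bp downstream in these lists. Those of SNHG15 lay 440, 396 and 350 bp downstream of it. By the nearest start, 8 of 9, 6 of 7 and 8 of 9 summits lay 0 to 100 bp downstream, a zone that held 59.0%, 52.9% and 54.1% of start-site summits in general. From control to U2AF1 knockdown a summit moved by at most 44 bp, and from control to DHX9 knockdown by at most 90 bp, both at SNHG15.

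Host peaks were wider than start-site peaks in general, which had medians of 326, 288 and 328 bp. The host medians were 469 bp (range 299 to 686) in the control list, 314 bp (281 to 572) in the U2AF1 list and 561 bp (385 to 828) in the DHX9 list, and over the 7 hosts with a peak in all lists 440, 314 and 561 bp. The downstream edges were close together, with medians of 266, 230 and 244 bp past the main start, whereas the upstream edges had medians of 164, 92 and 326 bp before it. SNHG5, with relative pileups between 18.8 and 21.5, had an upstream edge at 136, 102 and 352 bp and a downstream edge at 266, 266 and 223 bp. SNHG7 was an exception in the U2AF1 list, where its peak was wider than in the control list (572 against 484 bp). Width moves with depth and with the height of a peak, and their part in these differences was not tested.

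**Figure D4:**
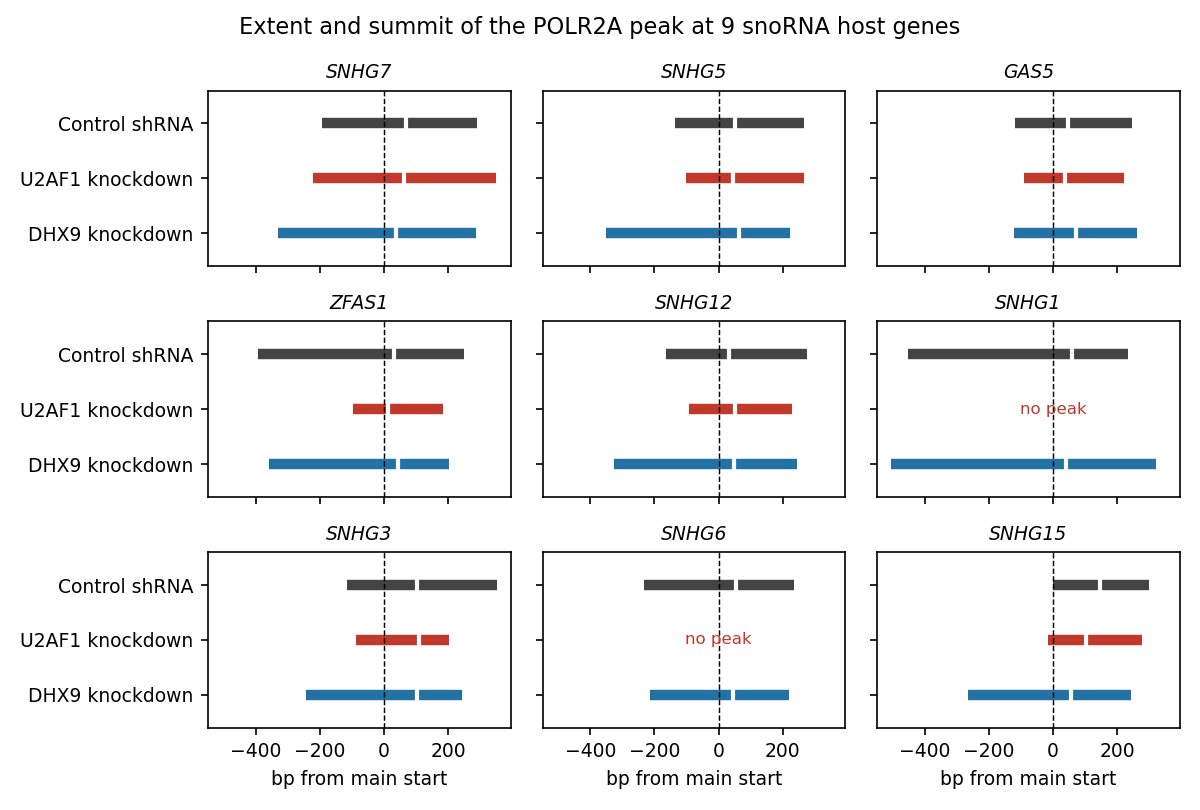
Peak extent (bars) and summit (white tick) in bp from the main start (dashed line; positive is downstream) at the 9 hosts with a peak, for the control (grey), U2AF1 knockdown (red) and DHX9 knockdown (blue) lists. All summits lie 13 to 147 bp downstream of the main start, while the upstream edge reaches farthest in the DHX9 list at 7 of the 9 hosts.

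The peaks ended mostly before the snoRNAs begin. The downstream edge lay 183 to 352 bp past the main start. The first RefSeq snoRNA of the host began at 244 bp (GAS5), 254 bp (SNHG1), 303 bp (ZFAS1) and from 820 to 2992 bp in the other hosts with a peak. Of the 25 peaks, 22 did not reach the first snoRNA; the other 3 were at GAS5 in the control and DHX9 lists and at SNHG1 in the DHX9 list. The host peaks in these lists thus describe polymerase at the starts, with 1 further peak inside a host, the second control peak of GAS5.

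Since the series concerns promoter R-loops, which form more readily where the strand of the transcript is rich in G, the GC skew, (G − C)/(G + C), of the 500 bp past the main start was computed. It was positive at 10 of 10 hosts, with a median of 0.0845. Genes with a control peak within 1000 bp of the main start had a median of 0.0574, and 68.9% of these 2953 genes were positive. SNHG5 had the highest skew of the hosts, 0.251, followed by SNHG15 with 0.168. ZFAS1 had the lowest, 0.00383, and the hosts without a U2AF1 peak, SNHG1 and SNHG6, had 0.0788 and 0.0186. The skew describes the sequence, and R-loops were not measured in these lists.

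Of 75 other noncoding hosts, 17 had a peak in the control list, 9 in the U2AF1 list and 21 in the DHX9 list (22.7%, 12.0% and 28.0%), and of 256 protein-coding hosts 69, 41 and 110 (27.0%, 16.0% and 43.0%). The highest noncoding hosts were ENSG00000262202, with ranks 31, 15 and 3, and SNHG9, with ranks 145, 177 and 112 in the control, U2AF1 and DHX9 lists. In the same order, the summits of ENSG00000262202 lay 608, 369 and 580 bp downstream of its start. RPS2, a protein-coding host, had the same ranks and folds as SNHG9. The summits lay 2, 20 and 9 bp downstream of the RPS2 start, and upstream of and farther from that of SNHG9. These peaks therefore cannot be credited to SNHG9 alone. SNHG19 ranked 268, 887 and 226. SNHG25 was highest in the U2AF1 list, with ranks 889, 209 and 1386. The highest protein-coding hosts in every list were TEX14, TMEM107 and PARP16, and their peaks lay 2908 bp or more from any start of the host itself.

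The proteins that bind snoRNAs or assemble them into particles were listed mostly in the DHX9 list, the longest. Of 18 such genes 2 had a peak in the control list (11.1%), 1 in the U2AF1 list (5.56%) and 7 in the DHX9 list (38.9%). Of all protein-coding genes 13.2%, 7.34% and 22.2% had one, so the set stood above the general share in the DHX9 list only. NOP56, a core protein of box C/D particles and itself a snoRNA host, was present in all lists, with ranks 272, 89 and 77. RPAP3, an assembly factor, had ranks 713 and 212 in the control and DHX9 lists. DKC1, the pseudouridine synthase (rank 479), FBL, the methyltransferase fibrillarin (rank 1756), NAF1 (rank 478), RUVBL1 (rank 1466) and ZNHIT6 (rank 4179) had a peak in the DHX9 list alone.

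The genes whose ranks were nearest to the host medians were H3C14, ANTKMT, GTF2A1 with its antisense neighbour GTF2A1-AS1, and TRAF4. Likeness was the sum of absolute differences in rank percent over the 3 lists, among 1035 genes with a start-site peak in each. H3C14, a histone gene, differed by 3.60 points in all and TRAF4 by 4.20. The ranks of H3C14 were at 7.91%, 15.4% and 1.51% of the control, U2AF1 and DHX9 lists.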

How the data were processed

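POLR2A was profiled by ChIP-seq in 9 samples: 2 ChIP replicates and 1 input in each of 3 conditions. The submitters' processing notes name Bowtie2 2.4.5, deepTools 3.5.1, MACS2 2.2.7.1 and hg38, without their settings. Per the labels, both replicates of a condition point to 1 deposited narrowPeak list. Control peak names end in a suffix that reads as replicate 1, so whether that list rests on 1 library is unknown. The deposited lists give a fold enrichment (a ratio), −log10 of p-values, an integer score (10 times −log10 of the q-value, rounded down, used for the q limit) and the summit. Numbers of reads are not given in these lists, so the depth is unknown apart from the recovered pileups.

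Peaks were joined to GENCODE version 44 (Python 3.11.15, pandas 2.3.3, scipy 1.17.1), and GRCh38 coordinates are counted from 1. RefSeq (GRCh38.p14) gave snoRNA genes, and 8 of the 10 hosts matched its promoter table. A recovered pileup or background was called whole within 0.01, and peaks with −log10 p above 200 were not inverted. In the control list 72.0% of peaks gave a single solution. Gene assignment and pileup recovery were tested on simulated data, made with the same formulas that the recovery inverts. For the control list the simulated backgrounds were whole numbers, whereas 58.6% of its single solutions had a whole background. The control backgrounds of ZFAS1, SNHG3, SNHG5 and SNHG6 were not whole, so the simulation did not check their control values.

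The hosts, the other gene lists and the alternatives were chosen with earlier results of these data known. All 10 hosts are named; of other hosts the 3 best ranks per list, of particle proteins those with a peak, and the 5 genes nearest to the host medians. Pileup recovery, the main start and TATANA were chosen after seeing the data.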

Additional observations from a re-analysis of the deposited data

How the results depend on the processing

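The number of hosts with a peak stayed at 9, 7 and 9 in the control, U2AF1 and DHX9 lists with −log10 q of at least 5 and with start windows of 500 or 2000 bp. The windows could not change it. Host summits lay at most 65 bp from a start, and the peak nearest to a missing host was 14.3 kb away. With every list reduced to its 1730 best p-values SNHG15 left the control and DHX9 lists (8 and 8 hosts), and with peaks nearer to a start of another gene left out SNHG3 left every list (8, 6 and 8). The median rank percent of the control list was 5.55 by −log10 p, 10.5 with −log10 q of at least 5, 11.5 with equal numbers of peaks and 10.7 by recovered pileup. That of the U2AF1 list was 10.8 by −log10 p, 25.1 with −log10 q of at least 5, 18.5 among start-site peaks and 19.0 by recovered pileup. That of the DHX9 list was 6.57 with −log10 q of at least 5, 10.3 with equal numbers and 8.53 by recovered pileup. Shorter lists raise a rank percent by construction; for the other moves the cause was not tested. Median summit offsets were 96, 61 and 78 bp from the canonical transcript start and 55, 51 and 49 bp from the main start. Median widths did not move under the 3 alternatives tried, but only GAS5, in the control list, had a further peak to choose from. No paired analysis was possible because the replicates of a condition share 1 deposited list, and for the same reason no replicate could be left out. Counting error limits the pileups, which rest on 20 to 61 fragments in the knockdown lists.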

Other observations

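Promoters with a TATANA match between 50 and 15 bases before the start had peaks of better median rank than other promoters in each list, but not a larger share with a peak in each. In the control list 131 of 1391 RefSeq promoters with the match (9.42%) had a summit within 1000 bp of the start, against 8.36% of 33725 promoters without it. In the U2AF1 list these shares were 6.90% and 4.32%, and in the DHX9 list the order was the opposite, 10.2% with the match and 14.4% without. In the control list peaks at promoters with the match had a median rank of 20.2% and those at promoters without it 47.4%. In the U2AF1 list the medians were 19.0% and 42.2%, and in the DHX9 list 19.0% and 46.0%. Among the best 10% of the control list by fold were 37.4% of the peaks at promoters with the match and 7.56% of those without. Some of these promoters share 1 peak, and the motif was picked from the host promoters, which are part of this count.

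GAS5 had a second peak in the control list, at 173862469 to 173862701, at a place where none of its 91 transcripts has an exon and 220 bp from a start of GAS5-AS1, a lncRNA gene on the other strand. Its fold enrichment was 2.48 and its rank 2535 of 2757. Neither knockdown list had a peak there.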
